A study of Homo sapiens with 2 samples.

Results

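Readthrough genes are annotated genes whose transcripts run across 2 neighbouring genes on the same strand and join exons of the upstream gene to exons of the downstream gene. They were found in a table of 50868 genes as the rows named by 2 gene symbols with a hyphen between them, where both symbols were also rows on the same chromosome and strand. This gave 123 genes, and 71 of them had 10 reads or more when both libraries were summed and were kept as the members. Their 142 parent genes, 71 upstream and 71 downstream, were described with them. They were chosen by name and by this sum of reads, so that they are expressed is not a finding.

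The RNA came from MOLM-13, also written Molm13, a human line of acute myeloid leukemia (AML) with a KMT2A::MLLT3 fusion gene. There was 1 library labelled Vector (OE-Control) and 1 labelled over-expression of UNC5B (OE-UNC5B), a netrin receptor. Per the study's methods, UNC5B was carried by a lentivirus with a CMV promoter, a 3×FLAG tag, mCherry and puromycin resistance, and infected cells were selected with puromycin; no clone was named, and drug treatment of the cells used for RNA-seq was not mentioned. The libraries held 13715566 reads (Vector) and 15637137 reads (labelled OE-UNC5B) counted on genes. No read was counted on UNC5B in either library (0 and 0), so these values do not show the over-expression and every direction below rests on the labels. All 12 myeloid markers examined were detected, and of these LYZ fell from 51742 to 23700 reads and MPO from 3363 to 1553 reads. The median log2 fold change of the 12 was 0.16, from -1.36 for LYZ to 0.90 for MEIS1; the part of this difference in the results below was not tested. Of the 28 markers of erythroid, T, B, endothelial, fibroblast and epithelial cells, 15 had 0 reads in both libraries and 6 had at least 10 reads over both.

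Most genes end their transcripts at a poly(A) site, where the RNA is cleaved, a tail is added and the polymerase is released. When the polymerase passes that site and reaches the next gene on the strand, splicing can remove the last exon of the first gene with the space between the genes and the first exon of the second. The joined RNA may encode a fusion of both proteins, or it may carry an early stop codon and be a target of nonsense-mediated decay, the pathway that degrades such RNAs. Because most of the exons of a readthrough gene are also exons of its parents, short reads that lie inside these exons fit both.

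Where a junction joins the parents, no annotated transcript of a parent holds it. The sequences below are shown because they mark where the parents are joined in the 8 called members with at least 50 reads over both libraries that had such a junction in GENCODE 44 (GRCh38). Each runs 5′ to 3′ along the spliced transcript, with 15 bases of the readthrough exon that overlaps the upstream gene in lower case and the first 15 bases of the exon that overlaps the downstream gene in capitals. Where several junctions were annotated, the one in the most transcripts is shown.
BIVM-ERCC5: ggaaaaagatgtctaATATTAGCATTTGGT
ISY1-RAB43: cagaaggctcctgggCTGCAGATCTGGGAC
CORO7-PAM16: gacgaggacgagtggGCCAAGTACCTGGCC
SYS1-DBNDD2: caacgccctcacctgGAGCTGACATGGACC
PMF1-BGLAP: cagcaggcctggcagGTGCGAAGCCCAGCG
NDUFC2-KCTD14: attttcctgaagaagATGTCTACTGTTGTG
C1QTNF3-AMACR: gctctttgaaactaaGTGTCATGGAGAAAC
SPECC1L-ADORA2A: gctgccccacagcgtGTGCCTCAGGAACCC
In 7 of these 8 the capitals begin at exon 2 of the main transcript of the downstream gene, and in SYS1-DBNDD2 they begin at another exon start of DBNDD2. In CORO7-PAM16, SYS1-DBNDD2, PMF1-BGLAP and NDUFC2-KCTD14 the lower case part ends at the end of the next to last exon of the upstream gene, and in the other 4 it does not end at an annotated splice site of the upstream gene. In GRCh38 the joined exon end and exon start lie at 102839803 and 102852118 on chromosome 13 for BIVM-ERCC5, whose gene coordinates differ between the deposited table and GENCODE 44, and at 129130088 and 129095169 on chromosome 3 (minus strand) for ISY1-RAB43. They lie at 4355286 and 4343291 on chromosome 16 (minus strand) for CORO7-PAM16, at 45365686 and 45408460 on chromosome 20 for SYS1-DBNDD2, and at 156236483 and 156242553 on chromosome 1 for PMF1-BGLAP. For NDUFC2-KCTD14 they are 78072998 and 78017270 on chromosome 11 (minus strand), for C1QTNF3-AMACR 34020587 and 34005899 on chromosome 5 (minus strand), and for SPECC1L-ADORA2A 24414744 and 24433131 on chromosome 22. The annotated coding sequence runs across the junction in all of them except SPECC1L-ADORA2A. The counts below are per gene, and reads across these junctions were not analysed here.

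With 1 library per group no test of the condition is possible, and no difference has a replicate check. The exact binomial test used here compares the reads of these 2 libraries, and its p-values and 95% Clopper-Pearson intervals cover counting error only. It was run on all 15384 genes whose reads summed to 10 or more, and a gene was called when it changed at least 2-fold with a Benjamini-Hochberg adjusted p-value under 0.05. Log2 fold changes are of the library labelled OE-UNC5B over Vector, on reads scaled by the trimmed mean of M-values (TMM) with 0.5 reads added. Where 2 read counts, shares or FPKM values are given for a gene, the first is Vector and the second the library labelled OE-UNC5B, and reads are as deposited.

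Of the 71 readthrough genes, 15 were called (21.1%), 9 higher and 6 lower in the library labelled OE-UNC5B, where 6.78% of all genes tested were called and 3.39% in each direction. By the 2-fold change alone, 18 of 71 passed (25.4%), beside 9.94% of all genes (5.15% higher and 4.79% lower). The readthrough genes did not move one way, with a median log2 fold change of -0.01 beside -0.01 over all genes, but their median absolute log2 fold change was 0.43 beside 0.32. They also had fewer reads, with a median of 126 over both libraries beside 593 for all genes tested, and 6 of the 15 called had under 50 reads. Their parents were closer to the background, with 13 of 127 tested called (10.2%), 6 higher and 7 lower. Where edgeR's exact test assumed a biological coefficient of variation of 0.4, the called readthrough genes went from 15 to 2, BIVM-ERCC5 and ISY1-RAB43, and the called parents to 0. At that setting 15 of all 15384 genes tested were called (0.0975%).

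Some readthrough genes were counted in 1 library and listed at 0 in the other. Of the 71, 5 (7.04%) had 0 reads in 1 of the libraries, beside 49 of all 15384 genes tested (0.319%). These were BIVM-ERCC5, ISY1-RAB43 and CKLF-CMTM1, with 0 reads in Vector, and ATP5MF-PTCD1 and ZFP91-CNTF, with 0 reads in the library labelled OE-UNC5B. Together they make up 10.2% of those 49 genes, while the readthrough genes make up 0.462% of the genes tested. All 49 passed the minimum of 10 reads through 1 library alone, so these shares only describe the counts. How reads in shared exons were divided is not given, and its part in these 0 counts was not tested.

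**Figure D1:**
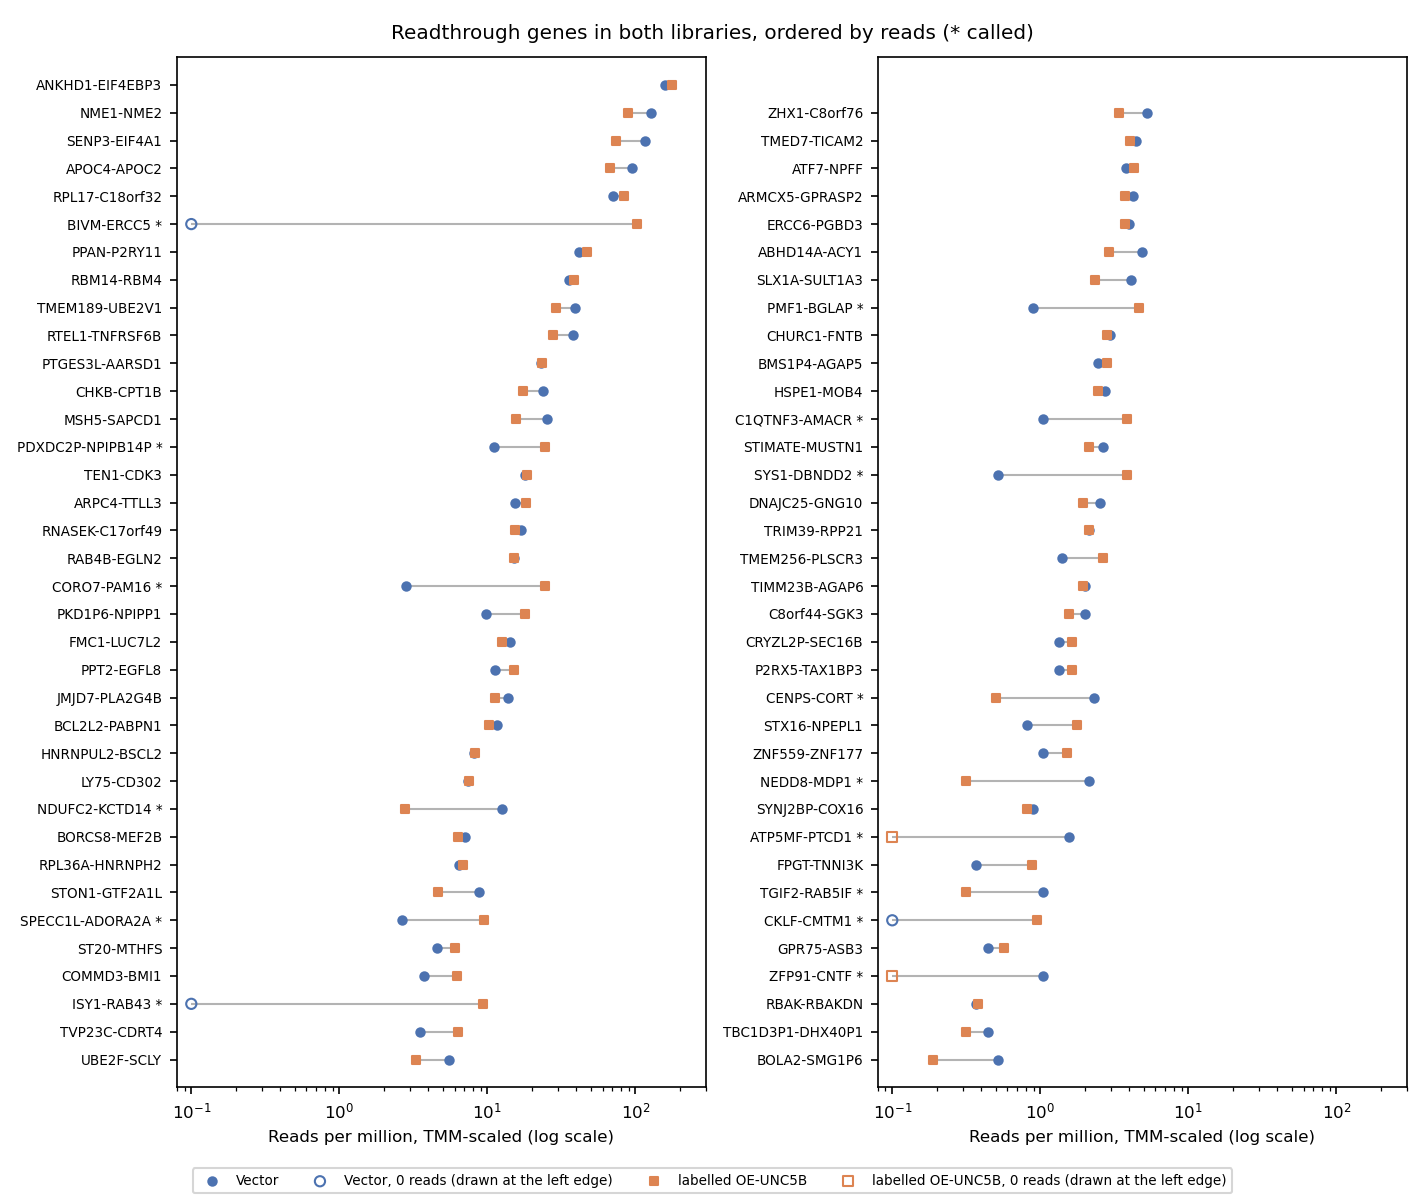
CPM (reads scaled to library size by TMM, log scale) of all 71 readthrough genes for Vector (circles) and for the library labelled OE-UNC5B (squares), ordered from the most to the fewest reads in 2 columns; open symbols at the left edge are libraries with 0 reads, and an asterisk marks the 15 called genes. Most pairs of symbols lie close together, while BIVM-ERCC5, with 0 and 1617 reads, spans nearly the whole axis.

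The largest change was in BIVM-ERCC5 (chr13:102807354-102872398, plus strand, GRCh38), which joins BIVM, a gene of little known function, to ERCC5, the endonuclease XPG of nucleotide excision repair. It had 0 Vector reads against 1617 in the library labelled OE-UNC5B. Against a Vector count of 3 this is 458-fold higher, and the lower interval limit of the log2 fold change is 8.54. ERCC5 moved the other way, from 2128 to 1099 reads, with a log2 fold change of -1.19 (-1.30 to -1.08). BIVM had 288 and 254 reads, a log2 fold change of -0.42 (-0.67 to -0.17).

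The 3 genes of this locus held 2416 Vector reads against 2970 in the library labelled OE-UNC5B, which differ by 0.06 on the log2 scale (-0.02 to 0.14) after scaling. So the sum over the locus was close to level while its parts were not. Set to the depth of Vector, the library labelled OE-UNC5B held 1373 reads on BIVM-ERCC5, 933 reads on ERCC5 and 216 reads on BIVM. The readthrough share of the locus was 0 of 2416 reads in Vector (exact binomial upper limit 0.153%) and 54.4% (exact binomial interval 52.6 to 56.3) in the library labelled OE-UNC5B. Per length, BIVM-ERCC5 was listed at 0 FPKM and 24.9 FPKM, and ERCC5 at 14.4 FPKM and 6.51 FPKM.

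ISY1-RAB43 showed the same arrangement at a lower level. It joins ISY1, a spliceosome protein, to RAB43, a small GTPase of membrane traffic, on chr3:129087575-129161036, minus strand. It had 0 Vector reads against 148 in the library labelled OE-UNC5B. This is 41.9-fold higher against 3 reads, with a lower interval limit of 5.07 on the log2 scale (adjusted p = 7.64e-39, exact binomial test on reads). RAB43 was called lower, with 37 and 15 reads, and ISY1 had 708 and 659 reads. The locus held 745 and 822 reads, a log2 fold change of -0.10 (-0.24 to 0.05). The readthrough share was 0 in Vector, with an exact binomial upper limit of 0.494%. In the other library it was 148 of 822 reads, with an interval of 15.4% to 20.8%.

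CORO7-PAM16 (chr16:4340251-4420494, minus strand) had the largest fold change among the members detected in both libraries. It joins CORO7, a coronin of the Golgi, to PAM16, a subunit of the motor that draws proteins into the mitochondrial matrix. It had 38 Vector reads against 387 in the library labelled OE-UNC5B, a log2 fold change of 3.10 (2.63 to 3.63; adjusted p = 1.13e-60, exact binomial test on reads). Both parents were lower without reaching 2-fold: CORO7 had 1079 and 878 reads and PAM16 had 363 and 312 reads. The locus sum changed by -0.15 on the log2 scale (-0.25 to -0.04), and the readthrough share went from 2.57% to 24.5%.

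SYS1-DBNDD2 and PMF1-BGLAP were also called higher, at under 100 reads over both libraries. SYS1-DBNDD2, which begins in SYS1, a Golgi membrane protein, had 7 and 61 reads, a log2 fold change of 2.80 (1.76 to 4.26), beside 304 and 386 reads for SYS1 and 470 and 631 reads for DBNDD2. PMF1-BGLAP joins PMF1, a kinetochore protein, to BGLAP, the bone protein osteocalcin, and had 12 and 74 reads, a log2 fold change of 2.34 (1.498 to 3.40). PMF1 had 389 and 312 reads, and BGLAP, with 6 and 9 reads, was close to undetected.

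C1QTNF3-AMACR had 14 and 61 reads, a log2 fold change of 1.85 (1.03 to 2.84). Its parents moved apart without a call, with 83 and 194 reads for C1QTNF3, a secreted C1q-like protein, and 147 and 96 reads for AMACR, a racemase of fatty acid oxidation. SPECC1L-ADORA2A ends in ADORA2A, an adenosine receptor, and had 36 and 152 reads, a log2 fold change of 1.83 (1.31 to 2.41). ADORA2A itself was called lower, from 41 to 15 reads, while SPECC1L, a cytoskeletal protein, had 768 and 1007 reads.

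PDXDC2P-NPIPB14P, a non-coding readthrough of 2 duplicated genes, had 150 and 389 reads, a log2 fold change of 1.14 (0.86 to 1.42). Its upstream parent PDXDC2P was called lower, with 45 and 7 reads, and NPIPB14P had 29 and 45 reads. The readthrough gene held most of this locus in both libraries, 67.0% and 88.2%. Copies of these genes lie elsewhere on the chromosome, and reads could be split between them, so these values are uncertain. CKLF-CMTM1, between genes of the chemokine-like factor family, was the last called member that was higher, with 0 and 15 reads. This is 4.24-fold higher against 3 reads, with a lower interval limit of 1.61 on the log2 scale.

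Among the 6 called members that were lower, NDUFC2-KCTD14 was the only one with at least 50 reads. It begins in NDUFC2, a subunit of respiratory complex I, and had 169 Vector reads against 44 in the library labelled OE-UNC5B, a log2 fold change of -2.17 (-2.69 to -1.69; adjusted p = 3.04e-22, exact binomial test on reads). NDUFC2 had 1019 and 1049 reads, and KCTD14 had 2 and 0 reads. The readthrough share of the locus went from 14.2% (12.3 to 16.3) to 4.03% (2.94 to 5.37).

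The other 5 rest on 39 reads or fewer over both libraries and were named because they complete the list, after their values were seen. CENPS-CORT had 31 and 8 reads and NEDD8-MDP1, which begins in the ubiquitin-like modifier NEDD8, had 29 and 5 reads. ATP5MF-PTCD1 had 21 and 0 reads, 8.25-fold lower against 3 reads, with an upper interval limit of -2.62 on the log2 scale. TGIF2-RAB5IF had 14 and 5 reads. ZFP91-CNTF had 14 and 0 reads, 5.50-fold lower against 3 reads, with an upper interval limit of -1.97 on the log2 scale. Its parent CNTF, the ciliary neurotrophic factor, was called higher with 6 and 53 reads.

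**Figure D2:**
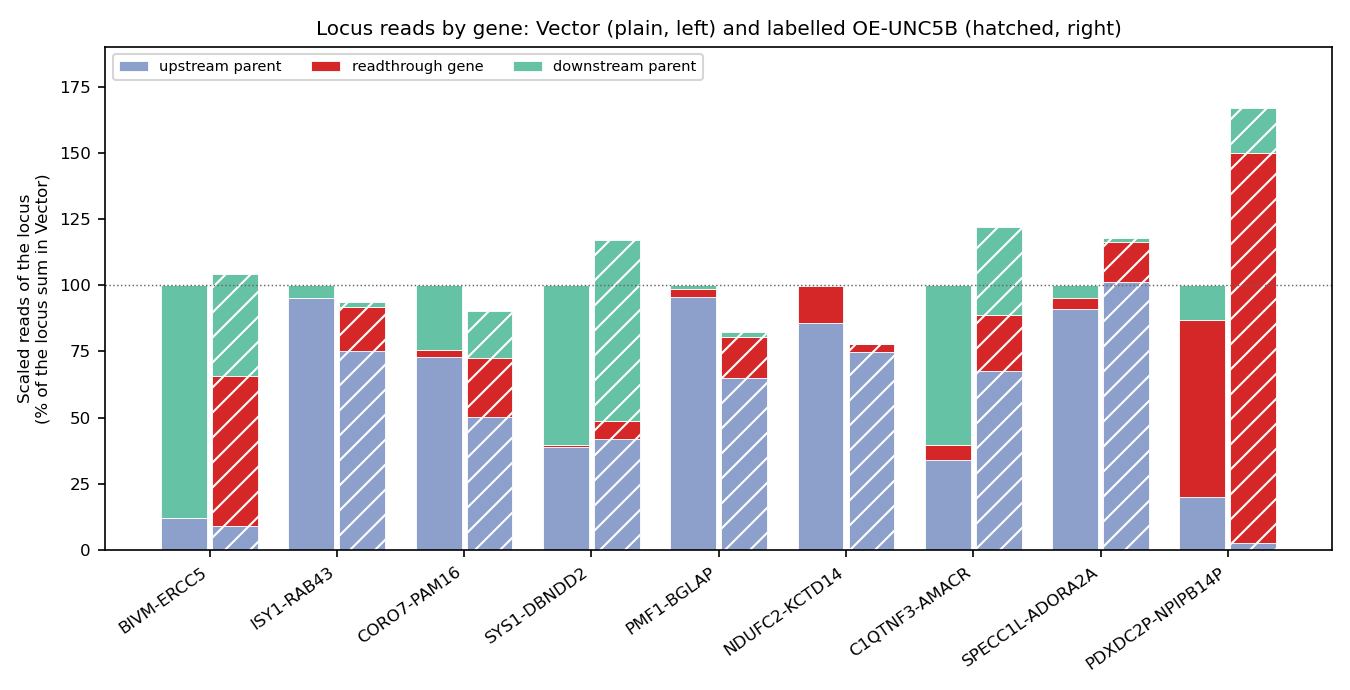
Scaled reads of the upstream parent, the readthrough gene and the downstream parent, as a percent of the locus sum in Vector, for the 9 called members with at least 50 reads; the plain left bar is Vector and the hatched right bar the library labelled OE-UNC5B. The red part grows from 0 to more than any other part at BIVM-ERCC5 while the bar stays near 100, and it shrinks at NDUFC2-KCTD14.

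In 5 loci both the readthrough gene and a parent were called, and in all 5 they moved in opposite directions; the background share called in either direction is 6.78%. The parents were ERCC5, RAB43, PDXDC2P, ADORA2A and CNTF, and 4 of them are the downstream parent. How reads that lie in shared exons were divided among the 3 genes is not given in the sources used here, and its part in these opposite changes was not tested.

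Another 8 loci had a called parent beside a readthrough gene that was not called. STX16, a syntaxin of the Golgi, rose from 430 to 2190 reads, a log2 fold change of 2.11 (1.96 to 2.27), while STX16-NPEPL1 had 11 and 28 reads. BCL2L2, which encodes the anti-apoptotic protein BCL-w, rose from 129 to 647 reads while BCL2L2-PABPN1 had 156 and 163 reads. NME1, a nucleoside diphosphate kinase, fell from 2284 to 1287 reads, and P2RY11, a receptor for ATP, fell from 282 to 135 reads. The other 4 were PKD1P6 (337 and 823 reads), ZNF559 (14 and 72), CDRT4 (4 and 17) and TICAM2 (16 and 0). In the remaining 48 loci no gene was called. By position, 6 of 69 upstream parents (8.70%) and 7 of 58 downstream parents (12.1%) with at least 10 reads were called, beside 6.78% of all genes tested.

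The sum of the readthrough gene and its parents varied less than the readthrough gene. Over the 71 loci the median absolute log2 fold change of the sum was 0.25, and 63 sums stayed within 1.5-fold. For the 15 called readthrough genes, 12 sums stayed within 1.5-fold, and they ranged from -0.72 to 0.74 on the log2 scale. These 15 genes held a median of 2.57% and 5.66% of their locus reads. Most of these sums are therefore parent reads, and a change of the readthrough gene alone moves them little. A sum changed at least 2-fold in 2 loci, STX16-NPEPL1 (694 and 2542 reads) and ZNF559-ZNF177 (34 and 96 reads), and in both the readthrough gene itself was not called. A sum carries more reads than its smallest part, so it has less counting error. If each read was counted for 1 gene only, the sum does not depend on how reads were divided among its 3 genes. Whether reads in shared exons were left out or counted for several genes is not given.

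**Figure D3:**
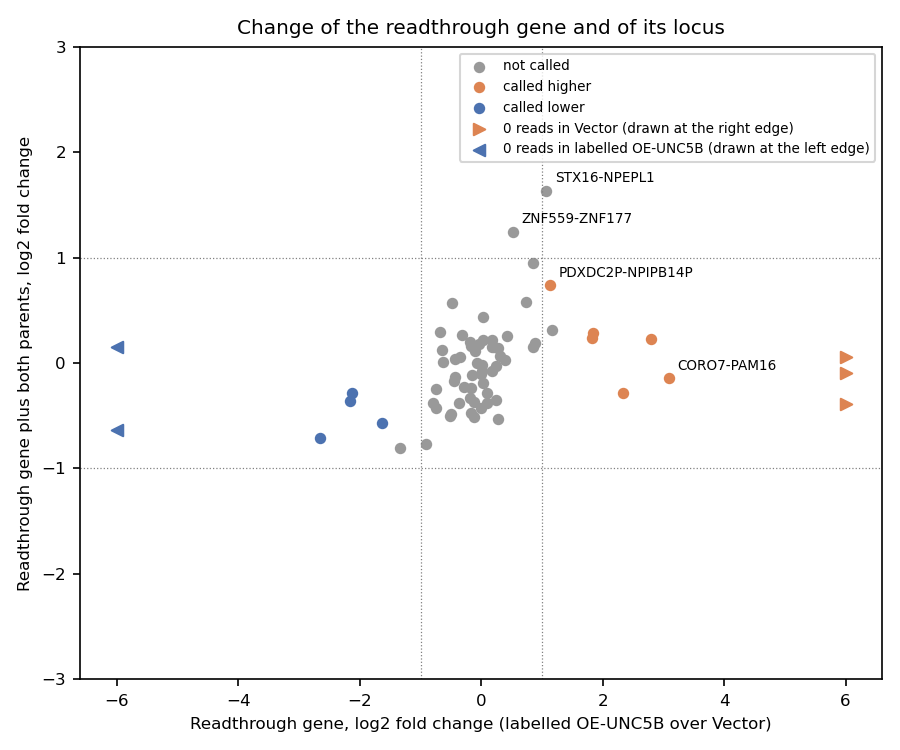
Log2 fold change of each readthrough gene (horizontal) against that of the sum of the readthrough gene and both parents (vertical), library labelled OE-UNC5B over Vector; triangles at the edges are genes with 0 reads in 1 library, and dotted lines mark 2-fold. The called genes spread along the horizontal axis while their loci stay between -0.72 and 0.74, and the 2 loci past 2-fold, STX16-NPEPL1 and ZNF559-ZNF177, belong to genes that were not called.

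The 10 members with the most reads changed less than 2-fold, except BIVM-ERCC5. Over all members there were 14463 readthrough reads for Vector against 17825 for the library labelled OE-UNC5B, which is 0.105% and 0.114% of the reads counted. Their sum rose by 0.07 on the log2 scale, and without BIVM-ERCC5, with 16208 reads in the library labelled OE-UNC5B, it changed by -0.07. The 5 members with the most reads held 47.9% of the readthrough reads of both libraries.

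ANKHD1-EIF4EBP3 had the most reads, with 2130 and 2826, a log2 fold change of 0.17 (0.09 to 0.25). It joins ANKHD1, an ankyrin repeat protein, to EIF4EBP3, a binding protein of the cap-binding factor eIF4E, and it held 64.0% and 61.9% of its locus. NME1-NME2 joins 2 near-identical nucleoside diphosphate kinases, between which reads may be split, and had 1721 and 1422 reads, a log2 fold change of -0.51 (-0.61 to -0.41). It kept its share of the locus, 20.8% and 20.6%, since NME2 had 4264 and 4187 reads and NME1 was lower. In this locus all 3 genes lay lower after scaling.

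SENP3-EIF4A1 joins SENP3, a protease that removes the modifier SUMO, to EIF4A1, a helicase of translation initiation. It had 1555 and 1169 reads, a log2 fold change of -0.65 (-0.76 to -0.54), while SENP3 had 808 and 1086 reads and EIF4A1 had 3006 and 4626 reads. With the readthrough gene lower and both parents higher, its share fell from 29.0% (27.8 to 30.2) to 17.0% (16.1 to 17.9), although neither it nor a parent passed 2-fold.

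APOC4-APOC2 had 1282 and 1074 reads, a log2 fold change of -0.49 (-0.61 to -0.37), and was far above both parents. APOC2, the activator of lipoprotein lipase, had 202 and 172 reads and APOC4 had 8 and 8 reads, so the readthrough gene held 85.9% and 85.7% of the locus. These apolipoprotein genes are best known from liver and macrophages. Most of what the table counts in this locus is therefore listed under the readthrough gene in both libraries.

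RPL17-C18orf32 begins in RPL17, a ribosomal protein with processed copies in the genome that may share reads, and had 949 and 1329 reads, a log2 fold change of 0.25 (0.13 to 0.37). PPAN-P2RY11 begins in PPAN, a factor of ribosome biogenesis, and had 558 and 745 reads, a log2 fold change of 0.18 (0.02 to 0.34), while its downstream parent P2RY11 was the called gene of the locus. RBM14-RBM4 joins 2 RNA-binding proteins and had 480 and 607 reads, a log2 fold change of 0.10 with an interval, -0.07 to 0.28, that includes 0. None of these 3 reached 2-fold.

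TMEM189-UBE2V1 ends in UBE2V1, a ubiquitin-conjugating enzyme variant, and had 529 and 460 reads, a log2 fold change of -0.44 (-0.62 to -0.26), while UBE2V1 had 926 and 1455 reads. RTEL1-TNFRSF6B joins RTEL1, a helicase that protects telomeres, to TNFRSF6B, a decoy receptor of the TNF family, and had 509 and 444 reads, a log2 fold change of -0.43 (-0.62 to -0.25). TNFRSF6B had 2 reads in each library. The share of RTEL1-TNFRSF6B fell from 65.4% to 53.0%, as RTEL1 had 267 and 392 reads.

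The readthrough share of locus reads does not depend on the scaling between the libraries. Over the 71 loci its median was 10.0% for Vector against 13.0% for the library labelled OE-UNC5B, with 28 loci under 10% and 7 loci over 50% in both libraries. The share moved by less than 5 points in 46 loci, and the median absolute change was 2.64 points. The binomial intervals of both libraries lay apart in 25 loci, with a higher share in the library labelled OE-UNC5B in 15 and a lower share in 10. Of these 25, 14 had a called readthrough gene and 11 did not. Summed over all loci, 16.2% of the Vector reads against 17.5% of those in the library labelled OE-UNC5B were listed under the readthrough gene.

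Among loci with at least 100 reads in each library, after BIVM-ERCC5, the largest changes of share were in CORO7-PAM16 (22.0 points), PDXDC2P-NPIPB14P (21.2 points) and ISY1-RAB43 (18.005 points), all higher in the library labelled OE-UNC5B. The largest fall among these loci was in MSH5-SAPCD1, which begins in MSH5, a protein of meiotic recombination. It had 339 and 248 reads, a log2 fold change of -0.69 (-0.93 to -0.45), while MSH5 had 632 and 1144 reads and SAPCD1 had 58 and 99 reads. Its share fell from 32.9% (30.1 to 35.9) to 16.6% (14.8 to 18.6).

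**Figure D4:**
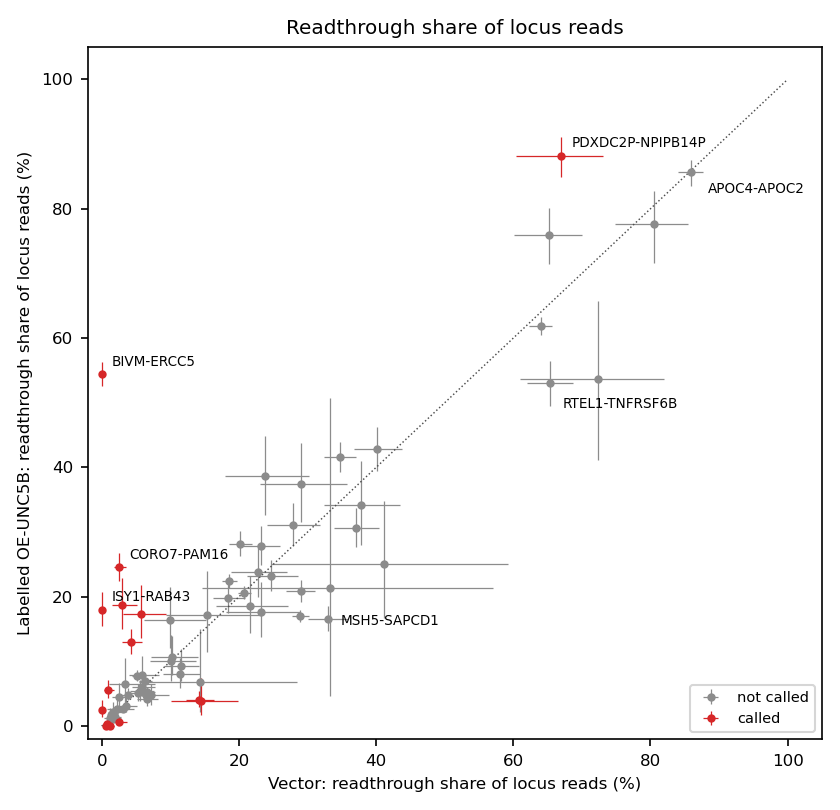
Readthrough gene reads as a percent of the reads of its locus for Vector (horizontal) and for the library labelled OE-UNC5B (vertical) for 71 loci, with exact binomial 95% intervals that cover counting error only; red points are called genes and the dotted line marks equal shares. BIVM-ERCC5 lies at 0 and 54.4%, while APOC4-APOC2 lies on the line at 85.9% and 85.7%.

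On the FPKM scale, which divides reads by gene length, 11 readthrough genes were listed above both of their parents in both libraries and 19 below both. Those above included APOC4-APOC2 at 35.4 and 26.0 FPKM, with APOC2 at 6.19 and 4.62 FPKM, and SENP3-EIF4A1 at 32.2 and 21.2 FPKM, with EIF4A1 at 12.8 and 17.3 FPKM. ANKHD1-EIF4EBP3 was at 11.2 and 13.0 FPKM, above ANKHD1 at 4.40 and 5.63 FPKM. In the other 41 loci the order differed between the libraries or the readthrough gene lay between its parents. The lengths behind the FPKM values are not stated by the authors. The length that each FPKM value implies, rounded to whole bases, was equal to the exonic bases in GENCODE 44 for 15 members. It was above them for 46 of 53 members with several transcripts. The lengths implied for the parents were not compared with the annotation, and their part in the FPKM order was not tested. On reads, without division by length, EIF4A1 lay above SENP3-EIF4A1, with 3006 and 4626 reads beside 1555 and 1169 reads. APOC4-APOC2 and ANKHD1-EIF4EBP3 lay above both of their parents on reads as well.

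In the deposited gene descriptions, 19 of the 71 readthrough genes were marked as candidates for nonsense-mediated decay. Of these, 3 were called higher (SYS1-DBNDD2, C1QTNF3-AMACR and SPECC1L-ADORA2A) and 1 lower (ZFP91-CNTF), beside 6 higher and 5 lower of the 52 that were not so marked. Of all genes tested, 3.39% were called in each direction. The median absolute log2 fold change of the 19 was 0.65 beside 0.33 for the 52, and their median share of the locus was 11.5% and 16.6% beside 8.59% and 9.08%. Their median log2 fold change was close to 0, as it was for the others. No test was made of these differences.

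The annotation shows how much sequence a readthrough gene shares with its parents. Of the 71 members, 68 were found by identifier in GENCODE 44, all with both parents, and 60 had the coordinates of the deposited table. A median of 94.3% of their exonic bases lay inside exons of a parent, with a range from 22.4% to 100%, and for 17 members all bases did. The median was 98.0% for the 15 called and 92.8% for the 53 others, and a member had a median of 140 bases outside the exons of its parents. For BIVM-ERCC5, 9 of 5709 exonic bases lay outside, and for ISY1-RAB43 and CORO7-PAM16 there were 0 such bases.

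**Figure D5:**
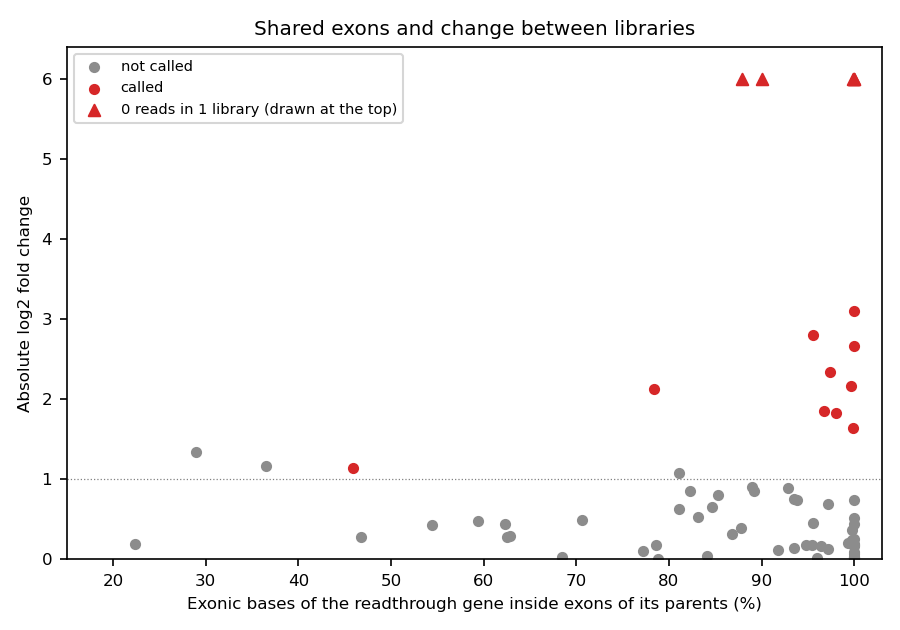
Percent of the exonic bases of each readthrough gene that lie inside exons of its parents (horizontal, GENCODE 44) against its absolute log2 fold change between the libraries (vertical), for 68 genes; triangles at the top have 0 reads in 1 library and the dotted line marks 2-fold. All called genes except PDXDC2P-NPIPB14P (45.9%) and CENPS-CORT (78.3%) lie at 87.9% or above, where many uncalled genes lie too.

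A junction that joins an exon of the upstream parent to an exon of the downstream parent was annotated for 61 members, and none of these junctions was in a transcript of a parent. The junction began at a splice site of the upstream parent in 43 and ended at a splice site of the downstream parent in 51, with both in 38. Where both exons belong to the main transcripts of the parents, in 35 members, 24 joined the next to last exon to exon 2, so that the last exon of the upstream gene and the first exon of the downstream gene were left out. The intron removed had a median of 12314 bases, from 219 to 105499. In 44 of the 61 the annotated coding sequence ran across the junction. The biotype was protein-coding for 61 members and lncRNA for 7.

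The parents of a readthrough gene lay close together, with a median of 2636 bases between them; 9 pairs overlapped. The distance was 3308 bases (median) for the called and 2465 bases for the other members. In 56 pairs both parents had at least 10 reads. No pair had both parents called, and 12 (21.4%) had 1 called. Over 7751 other neighbouring pairs on the same strand with no readthrough gene between them, 12 were called in opposite directions, 25 in the same direction and 896 (11.6%) had 1 or both called. The median absolute difference between the log2 fold changes of the neighbours was 0.46 for the parent pairs and 0.47 for the other pairs, which lay further apart, with a median of 21504 bases.

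The genes that carry out 3′ end formation and termination were examined beside the readthrough genes. This list held 29 cleavage, polyadenylation and termination factors, and 0 were called in either direction by the exact binomial test, with a median log2 fold change of 0.06 beside -0.01 for all genes. No member reached 2-fold, so none could be called by this or by edgeR's exact test; at an unadjusted p under 0.05 in the exact binomial test, with no limit on the fold, there were 21 of 29, beside 7997 of all 15384 genes. They ranged from -0.52 for SNRPC, a protein of the U1 particle (1980 and 1628 reads), to 0.45 for PCF11, a termination factor (1370 and 2209 reads). Of 15 factors of nonsense-mediated decay 0 were called by the exact binomial test and none reached 2-fold, while 12 of 15 had an unadjusted p under 0.05 at any fold, beside the same 7997 of 15384 genes, with a median log2 fold change of 0.08. They ranged from -0.69 for RBM8A, a subunit of the exon junction complex (1392 and 1018 reads), to 0.63 for SMG1, the kinase of the decay factor UPF1 (3308 and 6049 reads).

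The 3 members just inside the minimum were BOLA2-SMG1P6 (7 and 3 reads), RBAK-RBAKDN (5 and 6) and TBC1D3P1-DHX40P1 (6 and 5). Just outside were MROH7-TTC4 (8 and 0 reads), and then MIA-RAB4B (3 and 4), POC1B-GALNT4 (5 and 2) and RNF103-CHMP3 (1 and 6), which are tied at 7 reads. In all, 52 of the 123 readthrough genes had under 10 reads, and 36 of them had 0 in both libraries. In 8 of these 36 both parents had at least 100 reads over both libraries. RPS10-NUDT3 was such a case, with 0 reads in both libraries beside 6997 and 6275 reads for RPS10, a ribosomal protein, and 3518 and 5087 reads for NUDT3. A count of 0 in a library stands for less than 3 reads, or 0.219 CPM (reads scaled to library size) in Vector against 0.192 CPM in the library labelled OE-UNC5B, and it limits what the authors' counting listed under that gene.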

How the data were processed

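RNA of MOLM-13 cells was sequenced in 2 libraries, 1 per group, made with the VAHTS Universal V6 kit and run on an Illumina HiSeq platform. The submitters' processing notes name bcl2fastq 2.19, HISAT2 2.0.4, StringTie 1.3.0 and GRCh38. The counting step, the annotation release, the use of strand and the treatment of reads in shared exons are not given in the sources used here. Per gene, the authors deposited unnormalized read counts and FPKM values, which are scaled to gene length and to the reads counted. Without a stated use of strand, reads of a gene and an antisense partner cannot be told apart.

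Groups were taken from the genotype labels. TMM scaling used edgeR 4.0.16 in R 4.3.3 (factors 0.984 and 1.02), log2 fold changes had 0.5 reads added, and 15384 genes whose reads summed to 10 or more were put through the exact binomial test (scipy 1.17.1) and Benjamini-Hochberg adjustment. A gene at 0 reads in a library was given a fold against 3 reads in that library, with no fitted fold. That fold leaves out the counting error of the other library. Intervals are 95% Clopper-Pearson intervals and cover counting error only, since the reads carry no molecular identifiers. edgeR's quasi-likelihood test could not be fitted with 1 library per group. A locus was the readthrough gene plus its 2 parents. Exons and junctions were read from GENCODE 44 (GRCh38), in which 68 of 71 members and 140 of 142 parents were found by identifier. The procedure was tested on simulated counts. The members, gene lists and settings were chosen with earlier results of these data known. Named were the called members with at least 50 reads (up to 10 by size of change), the 10 with the most reads, the 5 with the largest change of share among loci with at least 100 reads in each library, their parents, and those next to the minimum of 10 reads. Settings tried in turn were size factors of DESeq2 1.42.0, totals of each library, the deposited FPKM, 2 reads added, minimums of 1 and 50 reads, an assumed coefficient of variation in the exact test of edgeR, other folds and a wider locus. Leaving out 12 members with duplicated, near-identical or pseudogene sequence was added after values were seen.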

Additional observations from a re-analysis of the deposited data

How the results depend on the processing

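With 1 library per group, leaving out a replicate was not possible. No paired analysis was possible because each group had 1 library, and so only 1 pair could be formed. In the analysis reported, 9 readthrough genes were called higher and 6 lower of 71, and 6 parents higher and 7 lower of 127, beside 6.78% of all genes. On the deposited FPKM with a minimum of 1, the fold alone was used, with no p-value, on 50 readthrough genes and 110 parents. With 0.1 added, 8 readthrough genes were higher and 3 lower, and 4 parents higher and 4 lower (all genes 5.82%). With 1 added, 5 readthrough genes were higher and 2 lower, and 3 parents higher and 2 lower (all genes 2.55%). With at least 50 reads, 8 of 55 readthrough genes were higher and 1 lower, and 2 of 96 parents higher and 6 lower (all genes 5.34%). Where the exact test of edgeR assumed a coefficient of variation of 0.2, 7 readthrough genes were higher and 4 lower, and 4 parents higher and 2 lower (all genes 1.64%). With 0.4, 2 readthrough genes, BIVM-ERCC5 and ISY1-RAB43, were higher and 0 lower, and 0 parents were higher or lower, where 15 of 15384 genes were called. At 1.5-fold, 13 readthrough genes were higher and 13 lower, and 13 parents higher and 18 lower (all genes 16.6%). At 4-fold, 6 readthrough genes were higher and 5 lower, and 4 parents higher and 2 lower (all genes 2.00%). Loci whose sum changed at least 2-fold went from 2 to 0 with at least 50 reads for the readthrough gene and to 1 with FPKM, and the median change of share went from 2.64 to 4.61 points with FPKM. The 50-read and FPKM settings test fewer genes. The 1.5-fold and 4-fold settings move only the cut-off, and the assumed coefficients of variation change only the p-values. The cause of the other differences was not tested. DESeq2 size factors, library totals and 2 reads added kept all 15 called readthrough genes. A minimum of 1 read kept 14, without TGIF2-RAB5IF. The fold alone on reads cannot lose a call, since it only drops the p-value. Without the 12 members with duplicated or pseudogene sequence, 8 were higher and 6 lower. None of the 19 members named by change, reads or share changed sign under the settings of scaling, reads added or FPKM. The minimum, test and fold settings leave these values unchanged, so they cannot change a sign. The other members named were not examined one by one.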
